A study of Mus musculus with 6 samples.

Results

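The genes of 35 integrin subunits and focal adhesion proteins were followed in mouse brown adipocytes exposed to rotenone. The set was fixed by gene symbol and comprised 11 alpha and 4 beta integrin subunits and 20 intracellular partners, out of 26214 genes listed in the count files. All 35 had reads and all 35 were among the 14709 genes tested. Itga2 and Itgb8 cleared the filter on low counts through 1 library each, the rotenone library and DMSO replicate 3 respectively, so their presence in the test says little. Itga10 cleared it through the 3 DMSO libraries alone, the group in which it is high.

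Immortalized mouse brown preadipocytes were differentiated for 7 days and then kept for 16 h with rotenone at 100 nM, which blocks complex I of the respiratory chain, or with its solvent DMSO. Both groups had gone through the same differentiation, with insulin and the thyroid hormone T3 throughout and with IBMX, dexamethasone and indomethacin during the first 3 days. The labels do not say whether the immortalized cells were 1 clone or a mixed population. RNA-seq counts were given for 3 libraries per group, but the 3 rotenone files were identical at all 26214 genes and were used as 1 library, which leaves 3 DMSO libraries against 1 rotenone library. The submitters call the replicates independent. Nothing else says that they were separate cultures, so p-values here rest on differences among these libraries alone and could reflect technical spread.

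Integrins are cell surface receptors for the extracellular matrix, each made of an alpha and a beta chain. The alpha chain largely sets which matrix protein is bound. The tail of the beta chain recruits talin and kindlin, and through vinculin, alpha-actinin, filamin and zyxin the complex is tied to actin filaments. Focal adhesion kinase, Src and scaffold proteins signal from the same site. In fat cells the plasma membrane is also rich in caveolae, small pits built on caveolins, and the balance between adhesion, actin tension and fat cell identity changes as preadipocytes become round, lipid-filled cells.

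Levels are given in CPM (counts scaled to library size) with library sizes adjusted by the TMM method. The libraries held 21611589 to 29194179 counts, and 3 counts, the most that a count of 0 allows, corresponded to 0.101 to 0.148 CPM, which covers counting error only. Fat cell identity was checked with 12 markers, of which 11 were tested. Of these 8 (72.7%) fell, against 28.5% of all genes, 4 of them also when a coefficient of variation of 20% was assumed. The summed level of the markers was 10989 to 12100 CPM in DMSO and 9430 CPM with rotenone, so fat cell genes were abundant in both groups. Much of the sum was Fabp4, at a mean of 5121 CPM in DMSO and 5306 CPM with rotenone. Dio2, the marker that was not tested, did not clear the filter on low counts, so its lack of counts with rotenone says little. Cebpa, Lipe and Prdm16 had the largest falls, with log2 fold changes of -2.31 ± 0.08, -1.88 ± 0.07 and -2.13 ± 0.14 (± SE).

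The change was mixed and ran mostly upward. In edgeR's quasi-likelihood test with Benjamini-Hochberg adjustment over all genes, 26 of the 35 genes differed between rotenone and DMSO at an adjusted p under 0.05, against 56.1% of all genes tested. Of the 35, 17 (48.6%) rose, where 27.6% of all genes did, and 9 (25.7%) fell, close to the 28.5% of all genes. The median log2 fold change was 0.30 over the 35 genes and -0.04 over all genes tested. With scaling by library size alone the median of all genes moved to -0.16 and that of the 35 to 0.18. Under that scaling 38.6% of all calls were higher, against 49.1% with TMM. Of the 35 genes 15 rose and 9 fell, which made 62.5% of their calls higher, against 65.4% with TMM.

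These calls assume that a rotenone library varies as little as the DMSO libraries, whose biological coefficient of variation was 6.9%. With a coefficient of variation of 20% assumed instead, 8 of the 35 passed, against 23.6% of all genes. The 6 that then rose were Itga5, Itga8, Itga11, Zyx, Actn1 and Flna (17.1% of the set, 9.57% of all genes). The 2 that fell were Itga10 and Tns1 (5.71% of the set, 14% of all genes). The other 18 calls given here ended under that assumption. The same 8 genes also passed every other setting tried.

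**Figure D1:**
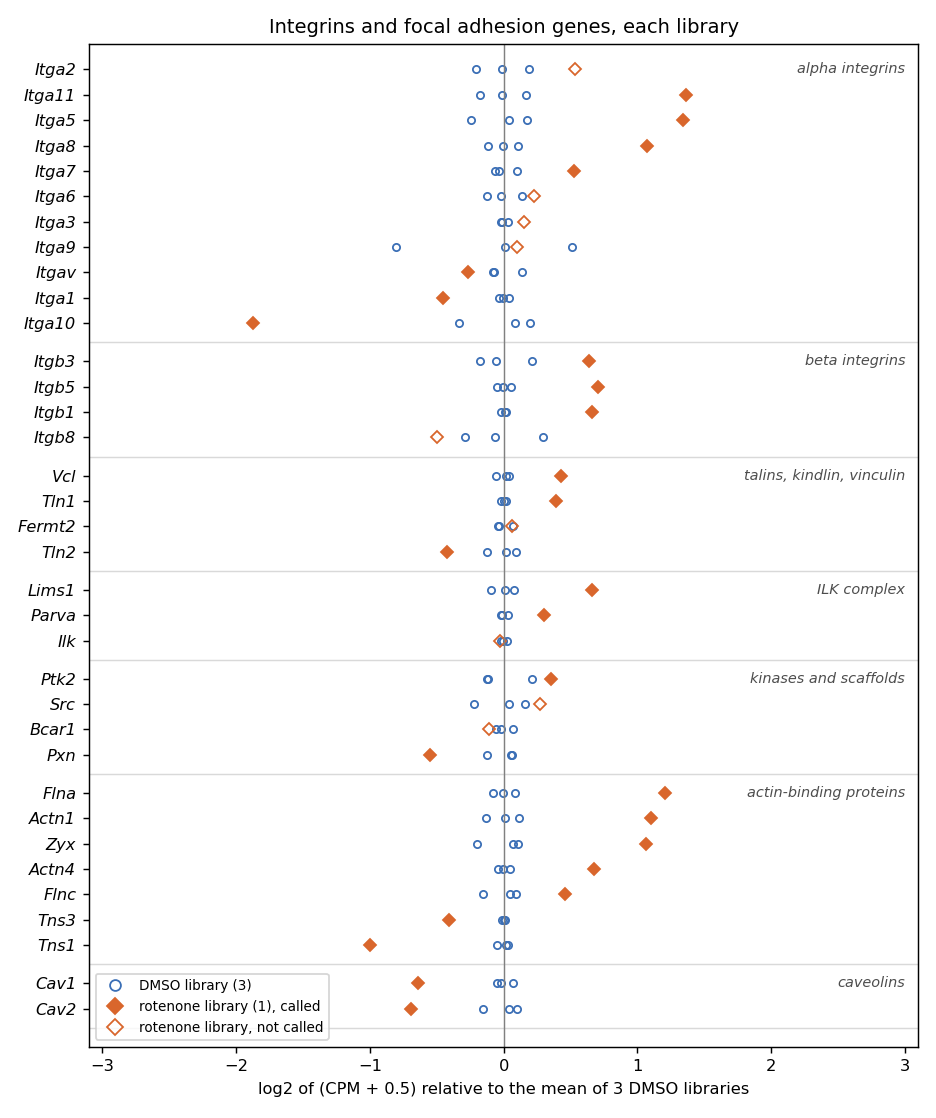
Level of each gene in each library as log2 of CPM plus 0.5, relative to the mean of the 3 DMSO libraries (x axis), with genes grouped by role (y axis). Open circles are DMSO libraries and diamonds the rotenone library, filled where the gene was called; 17 filled diamonds lie to the right and 9 to the left.

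**Figure D2:**
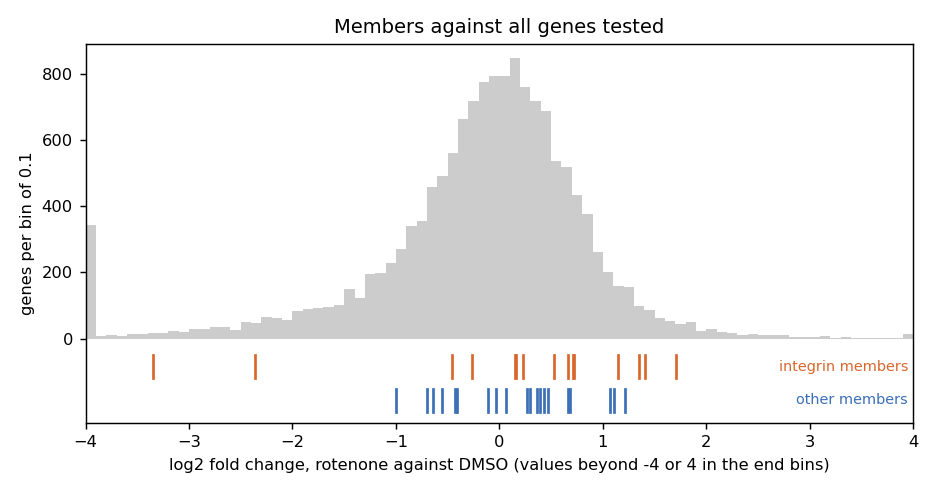
Histogram of the log2 fold change of all 14709 genes tested (grey, genes per bin of 0.1), with a tick for each integrin (orange) and each other member (blue). The ticks have a median of 0.30, against -0.04 for all genes.

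Of the 11 alpha subunit genes 4 (36.4%) rose (Itga5, Itga7, Itga8 and Itga11) and 3 (27.3%) fell (Itga1, Itga10 and Itgav). These shares were near the 27.6% and 28.5% of all genes, and the median log2 fold change of the 11 was 0.23. Itga5 encodes the alpha-5 chain of the classical fibronectin receptor and lies at chr15:103344286-103366763 (GRCm38, as all positions here). It stood at 46.7, 51.3 and 38.3 CPM in DMSO replicates 1, 2 and 3 and at 116 CPM with rotenone. The rotenone value was above every DMSO value, and DMSO replicate 3 was the lowest library. The log2 fold change was 1.35 ± 0.12 (SE), with an edgeR adjusted p of 5.1e-06. Itgav encodes the alpha-v chain, which binds vitronectin, fibronectin and other ligands with the RGD peptide motif. It was at 51.4, 51.8 and 59.9 CPM in DMSO and at 45.2 CPM with rotenone, a log2 fold change of -0.26 ± 0.10 (edgeR adjusted p = 0.035). The 2 groups did not overlap, but the call ended without DMSO replicate 3 (-0.19, adjusted p = 0.11), with DESeq2 (adjusted p = 0.11) and with limma-voom (adjusted p = 0.069). It also ended with correction for transcript length and GC content (-0.08). Itga8, another RGD-binding chain, rose from 4.56, 4.19 and 4.98 CPM to 10.1 CPM, a log2 fold change of 1.15 ± 0.21 (edgeR adjusted p = 0.00014).

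The 4 collagen-binding chains differed from one another. Itga11, a receptor for fibrillar collagen made by mesenchymal cells, stood at 9.83, 12.6 and 11.1 CPM in DMSO and 29.6 CPM with rotenone. Its log2 fold change was 1.41 ± 0.15 (edgeR adjusted p = 1.6e-07), with the rotenone value well clear of all DMSO values. Itga1, which prefers the network-forming collagen of basement membranes, was at 29.4, 28.6 and 27.9 CPM in DMSO and fell to 20.7 CPM with rotenone. Its log2 fold change was -0.46 ± 0.12 (edgeR adjusted p = 0.0026), and -0.28 after the length and GC correction, where the call ended. Itga10, a chain best known from cartilage, fell. It was counted 72, 44 and 59 times in the DMSO libraries (2.43, 1.52 and 2.21 CPM) and 4 times in the rotenone library. That is 0.197 CPM, with an exact 95% Poisson interval of 0.0537 to 0.505 CPM that covers counting error only. The log2 fold change was -3.35 ± 0.67 (edgeR adjusted p = 0.0003). Itga10 (chr3:96645584-96664519) shares 33.5% of its exon bases with Gm42957, a gene annotated on the same strand that is not in the count files. Itga2 was barely present, with 6, 1 and 3 counts in DMSO and 8 with rotenone, and did not pass (edgeR adjusted p = 0.25).

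Of the laminin-binding chains Itga3, Itga6 and Itga7, only Itga7 was called higher, where 27.6% of all genes were. Itga7, the laminin receptor chain known from skeletal muscle, was at 51.2, 45.6 and 46.5 CPM in DMSO and rose to 69.1 CPM (0.53 ± 0.09 on the log2 scale, edgeR adjusted p = 5.8e-05). Itga6 stood at 61.8, 51.5 and 55.5 CPM in DMSO and 66.0 CPM with rotenone, which gave 0.23 ± 0.10 and an edgeR adjusted p of 0.052. It passed without DMSO replicate 1 (0.31, adjusted p = 0.003) and with the length and GC correction (0.34, adjusted p = 0.0055), so this gene lies at the edge of the threshold. Itga3 gave 0.16 ± 0.16, at 11.2 to 11.7 CPM in DMSO and 12.7 CPM with rotenone. Itga9, which binds tenascin and osteopontin among others, had 5 to 35 counts in the DMSO libraries and 16 with rotenone, and the groups overlapped.

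Of the 4 beta subunit genes 3 (75%) rose, against 27.6% of all genes, with a median of 0.69 over the 4. Itgb1, the common partner of most alpha chains (chr8:128685654-128733200), was at 274, 267 and 273 CPM in DMSO and 430 CPM with rotenone. Its log2 fold change was 0.66 ± 0.06 (edgeR adjusted p = 3.5e-08). Itgb5, a partner of alpha-v, went from 66.1, 64.0 and 68.8 CPM to 108 CPM, a log2 fold change of 0.71 ± 0.08 (edgeR adjusted p = 2e-07). In both genes the DMSO libraries lay close together and the rotenone value lay above them. Itgb3, another partner of alpha-v, was low at 2.94, 3.63 and 2.66 CPM in DMSO and 5.07 CPM with rotenone. It gave 0.72 ± 0.28 (edgeR adjusted p = 0.037), a call lost with library size scaling (adjusted p = 0.08), without DMSO replicate 3 (adjusted p = 0.072) and with DESeq2 (adjusted p = 0.11). Itgb8 was counted 4, 7 and 12 times in DMSO and once with rotenone. The ratio of rotenone to DMSO was 0.183 with an exact 95% counting interval of 0.00443 to 1.12, and the gene did not pass (edgeR adjusted p = 0.25).

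**Figure D3:**
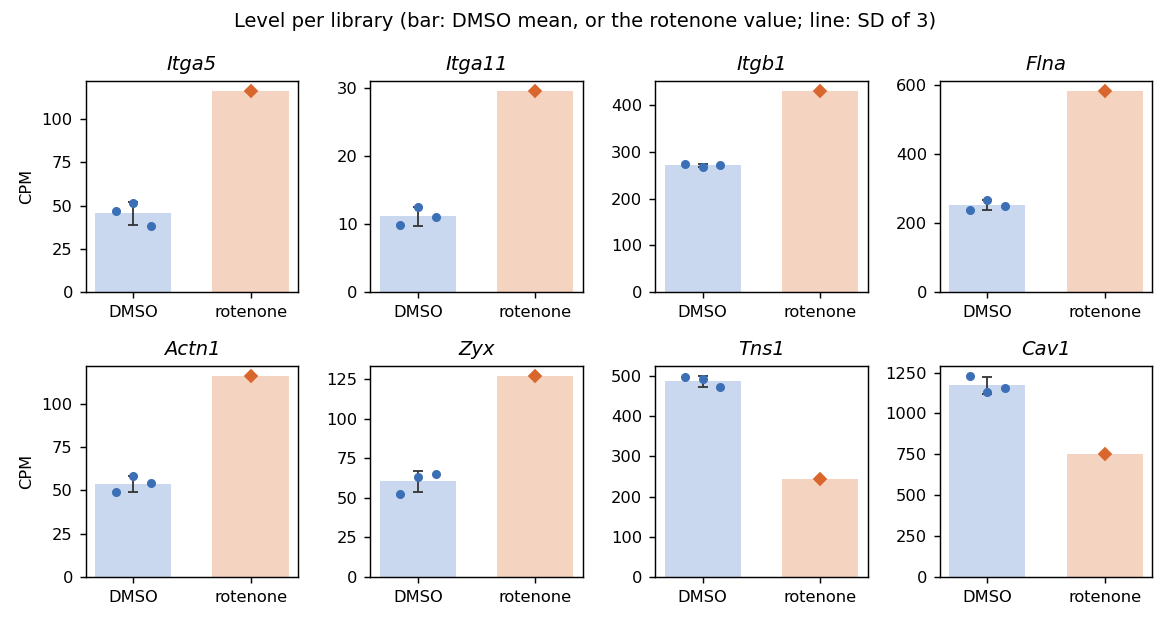
Level in CPM (y axis, from 0) of 8 genes in each library, with DMSO as circles around their mean (bar) and SD (line, n = 3) and rotenone as a diamond (n = 1). Rotenone lies above all DMSO values for Itga5, Itga11, Itgb1, Flna, Actn1 and Zyx and below them for Tns1 and Cav1.

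To compare genes with one another, CPM was divided by the length in kilobases of the longest annotated transcript. On this scale the leading alpha chains in DMSO were Itga6 at 13.1 ± 1.2, Itga7 at 11.9 ± 0.75 and Itga5 at 10.3 ± 1.5 CPM per kb (SD, n = 3). The SD ranges of Itga6 and Itga7 touched, as did those of Itga7 and Itga5. Within each DMSO library Itga6 stood above Itga7, while the order of Itga7 and Itga5 differed between libraries. Itgav followed at 7.71 ± 0.68 CPM per kb. Then came Itga1 at 2.61 ± 0.071, Itga3 at 2.34 ± 0.054 and Itga11 at 2.25 ± 0.28 CPM per kb, of which the last 2 overlapped. With rotenone Itga5 led at 26.3 CPM per kb, followed by Itga7 at 17.2, Itga6 at 15.3, Itgav at 6.41 and Itga11 at 5.96 CPM per kb.

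As a share of the summed level of the 11 alpha genes, Itga5 made up 19.8%, 22.8% and 17.3% in the DMSO libraries and 33.9% with rotenone. Itgav made up 13.7%, 14.4% and 16.9% in DMSO and 8.26% with rotenone. Itga6 went from 26.9%, 23.5% and 25.7% to 19.7%. Itga7 made up 22.3% to 23.9% in DMSO and 22.1% with rotenone. Among the 4 beta genes the division was nearly constant. Itgb1 held 76.9% to 77.7% in DMSO and 76.9% with rotenone, and Itgb5 held 21.6% to 22.5% in DMSO and 22.5% with rotenone. The summed level of the alpha genes was 50.1 to 53.3 CPM per kb in DMSO and 77.6 with rotenone, and that of the beta genes 90.2 to 93 and 147 CPM per kb. Thus both sums were higher with rotenone, and the alpha chains were redistributed while the beta chains kept their proportions. These sums were not tested.

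**Figure D4:**
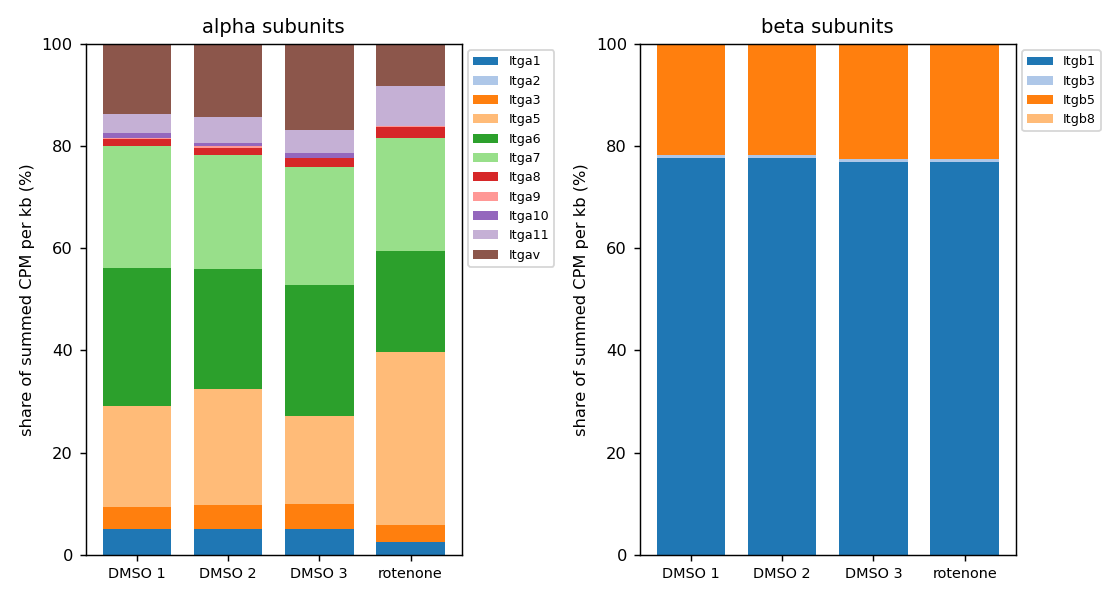
Share in percent of the summed CPM per kb (y axis) taken by each alpha gene (left) and beta gene (right) in the 3 DMSO libraries and the rotenone library. Itga5 widens to 33.9% with rotenone and Itgav narrows to 8.26%, while Itgb1 stays at about the 76.9% seen in DMSO replicate 3.

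Of the 4 genes that couple beta tails to actin 2 (50%) rose and 1 (25%) fell, against 27.6% and 28.5% of all genes, with a median of 0.23. Vcl encodes vinculin, which reinforces the link under tension. It was at 176, 168 and 179 CPM in DMSO and 234 CPM with rotenone (0.43 ± 0.07 on the log2 scale, edgeR adjusted p = 2.3e-05). Vcl shares 25.5% of its exon bases with Ap3m1 on the opposite strand (53.4 CPM in DMSO, 40.7 with rotenone), and the use of strand in counting is not given. Tln1, the widely expressed talin, rose from 120, 124 and 123 CPM to 161 CPM (0.39 ± 0.07, edgeR adjusted p = 7.3e-05), and gave 0.64 with the length and GC correction. Tln2, the second talin, fell from 41.1, 35.2 and 38.9 CPM to 28.6 CPM (-0.43 ± 0.11, edgeR adjusted p = 0.0038), a call that ended with the length and GC correction (-0.24, adjusted p = 0.084). Fermt2, the kindlin of mesenchymal cells, was at 131 to 142 CPM in DMSO and 141 CPM with rotenone. Its log2 fold change was 0.06 ± 0.07 and turned to -0.06 with library size scaling.

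ILK, PINCH and parvin form a scaffold on the beta tail, and 2 of their 3 genes (66.7%) rose, against 27.6% of all genes. Lims1, which encodes PINCH1, rose from 85.8, 97.1 and 92.7 CPM to 146 CPM (0.66 ± 0.08, edgeR adjusted p = 5.7e-07). Parva, alpha-parvin, went from 76.9, 77.1 and 79.6 CPM to 95.9 CPM (0.30 ± 0.07, edgeR adjusted p = 0.0019), and 0.18 with library size scaling. Ilk itself was at 116, 121 and 118 CPM in DMSO and 116 CPM with rotenone, a log2 fold change of -0.03 ± 0.07 (edgeR adjusted p = 0.75). Ilk shares 76.7% of its exon bases with Taf10 on the opposite strand, whose level was 66.5 CPM in DMSO and 135 CPM with rotenone, and reads of the 2 genes may not have been told apart.

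Of the 4 genes for kinases and scaffold proteins of the adhesion 1 (25%) rose and 1 (25%) fell, with a median of 0.08. These shares were near the 27.6% and 28.5% of all genes. Pxn, which encodes paxillin, fell from 47.3, 53.8 and 53.5 CPM to 35.1 CPM (-0.55 ± 0.10, edgeR adjusted p = 0.00017). Ptk2, focal adhesion kinase, was at 40.8, 40.6 and 51.3 CPM in DMSO and 56.7 CPM with rotenone (0.36 ± 0.12, edgeR adjusted p = 0.018), a call lost with library size scaling (0.24, adjusted p = 0.11). Src gave 0.27 ± 0.15 (edgeR adjusted p = 0.12), at 16.8 to 22 CPM in DMSO and 23.8 CPM with rotenone; it passed without DMSO replicate 2 (0.36, adjusted p = 0.043). Bcar1, the scaffold p130Cas, gave -0.11 ± 0.11 (edgeR adjusted p = 0.38).

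All 7 genes for actin-binding and tensin proteins passed the threshold, against 56.1% of all genes. Of these 5 (71.4%) rose and both tensins (28.6%) fell, with a median of 0.68. Flna, filamin A (chrX:74223461-74249820), stood at 238, 268 and 251 CPM in DMSO and 583 CPM with rotenone, a log2 fold change of 1.21 ± 0.07 (edgeR adjusted p = 2.6e-11). Actn1, a non-muscle alpha-actinin, went from 49.1, 58.1 and 54.1 CPM to 116 CPM (1.11 ± 0.09, edgeR adjusted p = 3e-09). Zyx, the tension-sensing LIM protein zyxin, went from 52.6, 63.2 and 65.2 CPM to 127 CPM (1.07 ± 0.10, edgeR adjusted p = 1.2e-07). In each of these 3 genes the rotenone value stood far above the highest DMSO library. Actn4 rose by 0.68 ± 0.06, from 208, 222 and 214 CPM to 344 CPM. Flnc, the muscle-type filamin, rose by 0.47 ± 0.09, from 48.4, 57.6 and 55.6 CPM to 74.3 CPM, and gave 0.93 with the length and GC correction. Tns1, tensin 1, which binds beta tails in long-lived fibrillar adhesions (chr1:73910231-74124449), was at 497, 493 and 472 CPM in DMSO and 243 CPM with rotenone. It fell by 1.00 ± 0.07 on the log2 scale (edgeR adjusted p = 6e-10), and the rotenone value lay well below all DMSO values. Tns3 fell by 0.41 ± 0.09, from 50.6, 50.0 and 50.7 CPM to 37.9 CPM (edgeR adjusted p = 0.0011), and gave -0.23 with the length and GC correction.

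Both caveolin genes fell, where 28.5% of all genes did. Cav1, whose protein forms the caveolar coat, was at 1230, 1130 and 1154 CPM in DMSO and 753 CPM with rotenone (-0.64 ± 0.07, edgeR adjusted p = 2.3e-07). Its neighbour Cav2 went from 378, 433 and 452 CPM to 260 CPM (-0.70 ± 0.09, edgeR adjusted p = 3.1e-06). Both lie on chromosome 6, at chr6:17306335-17341452 and chr6:17281185-17289115. Per kilobase of transcript, Cav1 stood at 427 ± 19 CPM per kb in DMSO (SD, n = 3) and 274 with rotenone, and Cav2 at 154 ± 14 and 95.1 CPM per kb. The 2 genes kept their ratio. Cav1 to Cav2 was 2.8 ± 0.39 in counts in DMSO (SD, n = 3) and 2.9 with rotenone.

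Ratios of related genes within a library do not depend on how libraries are scaled. The ratio of Tln1 to Tln2 counts was 3.2 ± 0.29 in DMSO (SD, n = 3) and 5.62 with rotenone. That of Flna to Flnc was 4.7 ± 0.21 and 7.84, and that of Actn1 to Actn4 was 0.25 ± 0.013 and 0.336. Tns1 to Tns3 went the other way, from 9.67 ± 0.3 to 6.42. The widest shifts were among the alpha chains. Itga5 to Itgav was 0.846 ± 0.18 in DMSO and 2.56 with rotenone, and Itga1 to Itga11 was 2.59 ± 0.37 and 0.7. In these 6 pairs, and for Itga6 to Itga7, the rotenone library lay outside the range of the DMSO libraries. For Cav1 to Cav2, Itgb1 to Itgb5 and Itgb3 to Itgb5 it lay within that range. With 1 rotenone library these ratios were not tested.

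**Figure D5:**
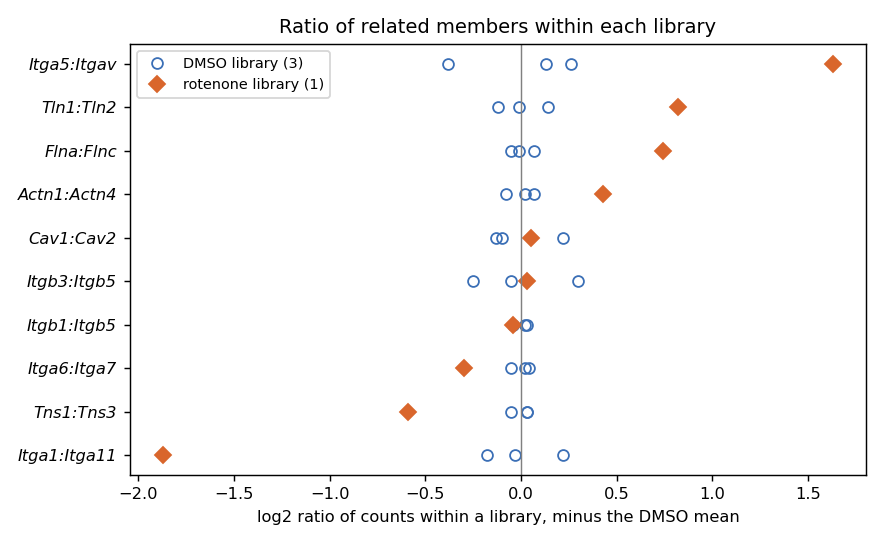
Log2 ratio of counts of 2 related genes within each library, minus the DMSO mean (x axis), for 10 pairs (y axis). Circles are DMSO libraries and diamonds the rotenone library, which lies farthest out for Itga5 to Itgav (1.63) and Itga1 to Itga11 (-1.88).

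Promoters were read for motifs of regulators that bear on actin, tension and oxygen, since Vcl is a textbook target of serum response factor (SRF). RefSeq windows on GRCm38.p6, from 250 bases before to 50 after an annotated start, were found for 28 of the 35 genes (35 windows). The CArG box, the binding motif of SRF, was sought on both strands, as was ACGTG, the core bound by hypoxia-inducible factors and also part of the E-box CACGTG, and GGAATG, a core bound by TEAD factors, the partners of YAP. Among the 28 genes 2 held a CArG box (7.14%), against 1.58% of the 11418 tested genes with a window and 1.81% of all 27025 genes with one. ACGTG was held by 9 (32.1%), against 28.7% and 21.8%, and GGAATG by 6 (21.4%), against 14.5% and 16.6%. Vcl, whose known link to SRF prompted the search, is among the 2 genes with a CArG box, and the other is Fermt2. The share of 7.14% therefore cannot show an excess of CArG boxes in the set. The windows of Vcl and Fermt2 are shown because they are those with a CArG box, and those of Tns1 and Cav1 because these lost the most CPM of the 35 genes. Capitals mark a CArG box or the ACGTG core on either strand.
Vcl, chr14:20929148-20929447, plus strand: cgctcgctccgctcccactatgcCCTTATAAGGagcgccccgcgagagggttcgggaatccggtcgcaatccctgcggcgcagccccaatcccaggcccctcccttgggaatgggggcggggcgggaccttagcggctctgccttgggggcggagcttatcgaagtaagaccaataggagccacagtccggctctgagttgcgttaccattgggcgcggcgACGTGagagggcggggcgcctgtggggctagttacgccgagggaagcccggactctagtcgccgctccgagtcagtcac
Fermt2, chr14:45530016-45530315, minus strand: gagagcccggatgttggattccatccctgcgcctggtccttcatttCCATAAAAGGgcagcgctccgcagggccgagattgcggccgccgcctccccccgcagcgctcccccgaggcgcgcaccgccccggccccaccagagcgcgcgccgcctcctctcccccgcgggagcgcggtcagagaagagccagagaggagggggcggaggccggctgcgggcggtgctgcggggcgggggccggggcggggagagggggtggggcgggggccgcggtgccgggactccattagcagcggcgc
Tns1, chr1:74124499-74124798, minus strand: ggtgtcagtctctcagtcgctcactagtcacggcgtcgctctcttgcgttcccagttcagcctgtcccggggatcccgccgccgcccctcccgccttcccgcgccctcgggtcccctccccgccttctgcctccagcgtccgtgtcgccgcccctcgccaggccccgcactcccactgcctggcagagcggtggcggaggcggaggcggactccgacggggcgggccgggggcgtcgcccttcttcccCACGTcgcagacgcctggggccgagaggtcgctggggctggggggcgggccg
Cav1, chr6:17306085-17306384, plus strand: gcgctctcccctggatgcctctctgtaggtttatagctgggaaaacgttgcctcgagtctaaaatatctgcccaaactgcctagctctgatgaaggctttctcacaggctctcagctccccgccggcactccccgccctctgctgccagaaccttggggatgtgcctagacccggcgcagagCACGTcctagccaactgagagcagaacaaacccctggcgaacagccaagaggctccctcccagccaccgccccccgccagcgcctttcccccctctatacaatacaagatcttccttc
The CArG box began at position -227 from the start of Vcl, which rose, and at -204 from that of Fermt2, which did not pass the threshold. Vcl also held ACGTG at -29, Tns1 held it at -2 and Cav1 at -68. The windows of Flna, Actn1, Zyx, Itga5 and Itga11 held neither a CArG box nor ACGTG. The TEAD core, not in capitals, was in windows of Actn4, Flna, Flnc, Itga10, Itgb1 and Vcl, of which Itga10 fell and the others rose. A match is a run of letters and not a shown binding site.

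The genes of matrix ligands of integrins mostly rose. Of 27 tested, 21 (77.8%) rose and 3 (11.1%) fell, against 27.6% and 28.5% of all genes, with a median log2 fold change of 1.03. With the 20% coefficient of variation 16 of the rises held and all 3 falls ended. Tnc, tenascin C, went from 46 ± 3.6 CPM (SD, n = 3) to 283 CPM (2.62 ± 0.08, edgeR adjusted p = 1.7e-15). Fn1, fibronectin, the ligand of the Itga5 product, gave 1.62 ± 0.06, and the matricellular Ccn1 gave 1.53 ± 0.09. The 3 that fell were the laminin alpha chains Lama4 (-0.73 ± 0.09) and Lama5 (-0.57 ± 0.08), and nephronectin, Npnt (-0.82 ± 0.12), a ligand of the Itga8 product. Of 12 genes with integrin symbols outside the 35 genes, 5 were tested and 2 (40%) fell, against 28.5% of all genes. Itgae fell from 11 ± 0.98 to 2.86 CPM (-1.95 ± 0.23) and Itga2b from 10.7 ± 0.78 to 7.34 CPM (-0.55 ± 0.19), the latter a call that ended with the 20% coefficient of variation. The leukocyte subunit genes Itgam and Itga4, and Itgb6, had no count in the rotenone library. Itga4 was low in DMSO too, at 0.54, 0.104 and 0.0749 CPM, and did not pass the threshold. Itgam and Itgb6 did not clear the filter on low counts.

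Further adaptors and kinases of adhesions went both ways, with 13 (31%) higher and 10 (23.8%) lower of 42 tested, close to the shares of all genes, and a median of 0.06. With the 20% coefficient of variation 3 were higher and 2 lower. Sdc4, syndecan 4, a co-receptor for fibronectin, stood at 240, 218 and 248 CPM in DMSO and 66.5 CPM with rotenone, a log2 fold change of -1.83 ± 0.09. Pdlim1 and Tgfb1i1, LIM proteins of stress fibres and adhesions, rose by 1.01 ± 0.11 and 0.91 ± 0.15. Of 9 other caveola genes tested, 1 (11.1%) rose and 4 (44.4%) fell, against 27.6% and 28.5% of all genes, with a median of -0.01. Those that fell were Cavin1 (-0.76 ± 0.07), Cavin2 (-0.86 ± 0.09), Cavin4 (-1.44 ± 0.49) and the neck protein gene Ehd2 (-0.91 ± 0.07), and Ehd1 rose by 0.76 ± 0.07. The calls of Cavin1, Cavin2 and Ehd1 ended with the 20% coefficient of variation.

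Of 16 genes for SRF, its partners and its actin targets, 11 (68.8%) rose and 2 (12.5%) fell, against 27.6% and 28.5% of all genes. Their median was 1.04, and 9 were higher and 1 lower with the 20% coefficient of variation. Cnn1, Acta2 and Tagln rose most, by 2.85 ± 0.23, 2.46 ± 0.06 and 2.43 ± 0.08. The 2 that fell were those of the SRF partners Mrtfa (-0.38 ± 0.12), whose call ended under that assumption, and Mrtfb (-1.11 ± 0.12). Of 12 targets of YAP and TAZ, 6 (50%) rose and 3 (25%) fell, against 27.6% and 28.5% of all genes. Their median was 0.23, and 2 were higher and 1 lower with the 20% coefficient of variation. Ccn1, also a matrix ligand, and Axl rose most, by 1.53 ± 0.09 and 1.22 ± 0.07. Ptpn14 (-0.94 ± 0.07), Nt5e (-0.93 ± 0.27) and Arhgef17 (-0.68 ± 0.08) fell. The 3 that did not pass were Ccn2 (-0.05 ± 0.10), Ankrd1 (-0.13 ± 0.31) and Amotl2 (0.01 ± 0.08). The calls of Nt5e and Arhgef17 ended under that assumption. All p-values behind these list calls are from the same edgeR fit, and the lists were chosen with earlier results of these data known.

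Several integrins and actin-binding proteins are also expressed by other cell types, and of the markers of these some rose and others fell. In such bulk samples fewer cells of a type and less RNA per cell cannot be told apart. Markers of preadipocytes and fibroblasts summed to 1309 to 1354 CPM in DMSO and 1821 CPM with rotenone. Most of this sum was Vim, at a mean of 1155 CPM in DMSO and 1469 CPM with rotenone. Of the 10 tested, 5 (50%) were called higher and 1 (10%) lower, against 27.6% and 28.5% of all genes. Lum and Dpp4, which did not clear the filter on low counts, were at 0 with rotenone. Thy1 and Dlk1 rose by 1.71 ± 0.10 and 1.38 ± 0.10, and Pdgfra fell by 1.11 ± 0.16. Of 9 smooth muscle and pericyte markers 3 (33.3%) rose (Acta2, Tagln and Cnn1) and 3 (33.3%) fell (Cspg4, Mcam and Des), shares near those of all genes. The 3 that rose are also among the SRF targets above. The sum went from 500 to 536 CPM to 1672 CPM. Most of it came from Acta2 (mean 155 CPM in DMSO, 852 CPM with rotenone) and Tagln (122 and 654 CPM). Cspg4 went from 109 to 50.3 CPM, Mcam from 54.7 to 27.6 CPM and Des from 50.9 to 41.7 CPM. Myh11, a defining smooth muscle gene, did not pass, at 2.91 ± 0.59 CPM in DMSO (SD, n = 3) and 1.92 CPM with rotenone. Skeletal muscle markers summed to 2.16 to 3.41 CPM in DMSO and 7.73 CPM with rotenone, with no counts for Myod1, Myf5 and Myh3. Acta1 was higher (4.87 ± 0.45) and Tnnc1 lower (-1.38 ± 0.49). Acta1 stood at 0.304, 0.138 and 0.225 CPM in DMSO and 6.65 CPM with rotenone. It cleared the filter on low counts through the rotenone library alone, the group in which it is high. Macrophage markers summed to 2.67 to 3.59 CPM in DMSO and 15.7 CPM with rotenone, where 1 of 7 was tested and rose (Cd68, 2.38 ± 0.23). Most of the sum was Cd68 itself, at a mean of 2.98 CPM in DMSO and 15.5 CPM with rotenone. Csf1r and Itgam, which did not clear the filter on low counts, were at 0 with rotenone. Ptprc, Adgre1 and Mrc1 had no counts in any library. Endothelial markers summed to 6.61 to 7.6 and 13.2 CPM, with Eng (1.25 ± 0.33) and Egfl7 (0.62 ± 0.23) higher, Cdh5 at 0 with rotenone and Emcn without counts. With the 20% coefficient of variation the calls of Vim, Des and Egfl7 ended. The part of fibroblast and smooth muscle markers in the changes of the integrin and adhesion genes was not tested.

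Transcript length also moved with the fold changes. The 3551 genes with the longest transcripts, of 14216 with a length, had a median log2 fold change of -0.22, against -0.04 over all genes with a length. Of the 35 integrin and adhesion genes 18 were among them, with a median of 0.23. After the length and GC correction the median of the 35 was 0.34.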

How the data were processed

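The deposited files hold raw counts, whole numbers of reads for each gene symbol, with 1 file per sample. Per the submitters' processing notes TopHat2 and mouse build mm10 were used; versions, the counting program, the annotation, the use of strand and the handling of multi-mapped reads are not stated in the labels. The 3 rotenone files, identical at every gene, entered once. Totals were 26085061 to 29194179 counts in DMSO and 21611589 with rotenone.

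Genes were filtered with filterByExpr, scaled by TMM and tested with the robust quasi-likelihood F test of edgeR 4.0.16 (R 4.3.3), rotenone against DMSO, with 2 residual degrees of freedom and Benjamini-Hochberg adjustment over 14709 genes. The SE is the log2 fold change divided by the square root of F. Alternatives used limma 3.58.1, DESeq2 1.42.0, other scalings, filters, thresholds and priors, each DMSO library left out, Rn45s left out, a coefficient of variation of 20%, and offsets from 8 by 8 bins of transcript length and GC content (14216 genes with a length in GENCODE M21, including all 35 members).

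The members and lists were chosen with earlier results of these data known. All 35 members were named. From each list, up to 3 genes with the largest change past the threshold and a mean of at least 1 CPM were named, with every gene called in a direction that held 3 or fewer. Cavin1, Myh11, Itgam, Itga4, Itgb6, Fabp4, Vim, Ccn2, Ankrd1, Amotl2 and markers at 0 were named after their values were seen, as were the shared-exon genes. Exon overlaps and positions are from GENCODE M21 on GRCm38, which is the mm10 assembly; promoter sequences are from RefSeq on GRCm38.p6. The result of 1 of the 7 pathway lists is not reported here.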

Additional observations from a re-analysis of the deposited data

How the results depend on the processing

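Of the 26 calls, 8 held in every alternative, and 21 held in every one but the test against a 1.5-fold change and the 20% coefficient of variation. In the 1.5-fold test 6 members were higher and 2 lower, as with the 20% coefficient of variation (6 and 2). Over all 14709 genes tested, the 1.5-fold test gave 1203 higher and 1731 lower. The 20% coefficient of variation gave 1408 (9.57%) and 2063 (14%). For the 7 pathway lists together, without members, 64 of 137 genes tested (46.7%) rose and 28 (20.4%) fell. The shares of all genes were 27.6% and 28.5%. The list counts were 35 and 12 in the 1.5-fold test and 32 (23.4%) and 10 (7.3%) with the 20% coefficient of variation. The members' median log2 fold change of 0.30 was 0.32 with median-ratio scaling and with DESeq2, 0.26 with upper quartile scaling, 0.18 with library size scaling, 0.37 with limma-voom, 0.34 with the length and GC correction, and 0.30 to 0.36 with 1 DMSO library left out. The log2 shift of Cav1 to Cav2 was -0.01 to 0.17 and that of Itgb3 to Itgb5 -0.10 to 0.18 with 1 DMSO library left out. Both turned sign without DMSO replicate 3. Without length scaling the shift in share was -3.63 percentage points for Itga6, -8.54 for Itgav and 0.43 for Itga7, the last a turn from -0.95. Apart from these scale changes by construction, the cause was not tested. No paired analysis was possible because the rotenone group had 1 distinct library. The few counts of Itga2, Itga9, Itga10 and Itgb8 limit their precision.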
